A study of Mus musculus with 10 samples.

Results

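The glucocorticoid receptor, encoded by Nr3c1, and 9 genes tied to it in liver were followed in the livers of NIKhKO and NIKflox mice fed ethanol. The 10 genes were picked by symbol from the 55401 genes of the deposited table, and all 10 were found, each with a single entry. The group was proposed because Fkbp5 read lower in NIKhKO livers, so the Fkbp5 difference is described without a test. The other members are Tsc22d3, Sgk1, Zbtb16, Dusp1, Tat, Mt1, Mt2 and Hsd11b1.

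NIKhKO livers (5 mice) are labelled as lacking NIK, the NF-kB inducing kinase encoded by Map3k14, and NIKflox livers (5 mice) carry the floxed gene, written NIKF/F in the series text. The series title speaks of hepatic NIK. The sources used here do not give the Cre driver, the deleted part of the gene, or the age and sex of the mice. All mice of both genotypes were fed, for 4 weeks, a liquid diet of the Lieber-DeCarli type that held 5% ethanol, so there is no ethanol-free liver to set the levels against. The libraries were made from oligo(dT)-selected liver RNA. Nothing says whether the mice shared litters, cages or days, so p-values speak only to the spread among these livers.

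The glucocorticoid receptor sits in the cytoplasm in a complex with Hsp90 and its co-chaperones until corticosterone, the main glucocorticoid of mice, binds it. It then enters the nucleus and binds short palindromic DNA elements, from which it raises or lowers transcription. In liver it is best known for inducing genes of amino acid breakdown and glucose production during fasting and stress, and its targets rise and fall with the daily corticosterone rhythm. Glucocorticoids also induce genes that limit their own signal, Fkbp5 among them.

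Total estimated counts, the authors' whole-number estimates per gene, ran from 47161869 to 65052525 per library. Mitochondrial transcripts took 7.15 to 12.7% of them. Map3k14 read 0.347, 0.361, 0.443, 0.389 and 0.373 FPKM in NIKhKO 1 to 5, against 0.553, 0.51, 0.585, 0.899 and 0.483 FPKM in NIKflox 1 to 5 (FPKM, the authors' fragment values scaled for transcript length and library depth). The ranges did not overlap, as for 1.59% of all genes tested in that direction, and NIKhKO livers averaged 63.1% of the NIKflox mean. The Map3k14 log2 fold change, NIKhKO over NIKflox, was −0.59 in edgeR (SE 0.19, adjusted p = 0.33), −0.42 without NIKflox 4 (adjusted p = 0.50), whose value was highest, and −0.45 without NIKflox 2 and NIKflox 4 (adjusted p = 0.59). Since the deleted part is not known, Map3k14 RNA is a limited check of the labels. Hepatocyte markers such as Alb and Apoa1 summed to 41500 to 48500 FPKM in NIKhKO livers and 37900 to 52400 FPKM in NIKflox livers. Heart muscle genes summed to 7.01 and 29.9 FPKM in NIKflox 2 and NIKflox 4, against 0.00828 to 0.197 FPKM in the other 8 libraries. Many, though not all, of the results below are given with and without these 2 libraries.

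DNA sequence is shown for 3 members, as the 250 bases before an annotated start from RefSeq (GRCm38.p6, plus strand, written 5′ to 3′). RefSeq windows were found for 8 of the 10 members, 15 windows in all. The Sgk1 window (chr10:21993640-21993889) is shown because it holds the full receptor palindrome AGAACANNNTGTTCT, in capitals, which was found in 3 of 32817 windows searched on both strands (0.00914%). The Mt1 window (chr8:94178839-94179088) and the Mt2 window (chr8:94172368-94172617) are shown because these neighbouring genes varied together. Their capitals mark the core letters of the metal response element, TGCACNC or TGCGCNC on either strand, the site of the zinc sensor MTF1.
Sgk1: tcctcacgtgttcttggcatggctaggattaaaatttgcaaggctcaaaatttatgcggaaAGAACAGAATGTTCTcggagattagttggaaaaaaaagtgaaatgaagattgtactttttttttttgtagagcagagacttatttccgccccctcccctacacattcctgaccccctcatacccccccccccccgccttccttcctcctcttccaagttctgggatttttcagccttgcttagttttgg
Mt1: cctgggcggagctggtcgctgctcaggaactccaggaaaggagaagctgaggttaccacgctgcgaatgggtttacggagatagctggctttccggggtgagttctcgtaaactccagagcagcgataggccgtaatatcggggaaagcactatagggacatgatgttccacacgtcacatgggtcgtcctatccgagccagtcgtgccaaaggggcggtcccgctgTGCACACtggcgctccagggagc
Mt2: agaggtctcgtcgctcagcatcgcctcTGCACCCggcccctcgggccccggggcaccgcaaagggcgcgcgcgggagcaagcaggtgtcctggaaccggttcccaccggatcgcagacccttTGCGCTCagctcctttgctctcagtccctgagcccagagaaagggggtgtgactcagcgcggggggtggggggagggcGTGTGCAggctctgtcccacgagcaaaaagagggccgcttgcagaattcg
The Sgk1 palindrome lies at chromosome 10, 21993701 to 21993715, and starts 189 bases before that annotated start. Sgk1 has 6 RefSeq windows at separate starts. No other window of a member held the palindrome. Its half-site, TGTTCT, which is contained in the palindrome, occurred in 16.1% of all windows and, among members, in 3 of the Sgk1 windows and 1 of the 3 Tsc22d3 windows. A metal element occurred in 21.4% of all windows and 3 or more in 1.26%, with 3 in the Mt2 window and 1 each in the Mt1 and Hsd11b1 windows. Annotated Mt1 transcripts also start at 94179211 and 94179241, and an Mt2 transcript at 94172860, beyond these windows. The bases just before those starts were not searched, so the counts do not compare the whole promoters of Mt1 and Mt2. These are matches of letters, not measured binding, and a window without a match says nothing about the receptor.

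Of 12731 genes tested with edgeR's quasi-likelihood test, 3 (0.0236%) had an adjusted p below 0.05, of which 2 (0.0157%) were higher and 1 (0.00785%) was lower in NIKhKO livers. The alternative tools called 207 of the 12456 genes given an adjusted p (1.66%) with DESeq2 and 0 of 12731 (0%) with limma. Leaving aside Fkbp5, whose difference chose the group, edgeR, DESeq2 and limma each called 0 of the 9 other members, and 0 of them had an unadjusted p below 0.05 in any of the 3 tools, against 10% of all genes tested with edgeR. The log2 fold changes of these 9 in edgeR had a median of 0.17 with 6 positive and 3 negative, beside a median of −0.01 over all genes tested. Counts for the lists below are to be set beside 2 shares over all genes. These are 10% at an unadjusted edgeR p below 0.05 and 1.66% called by DESeq2.

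**Figure D1:**
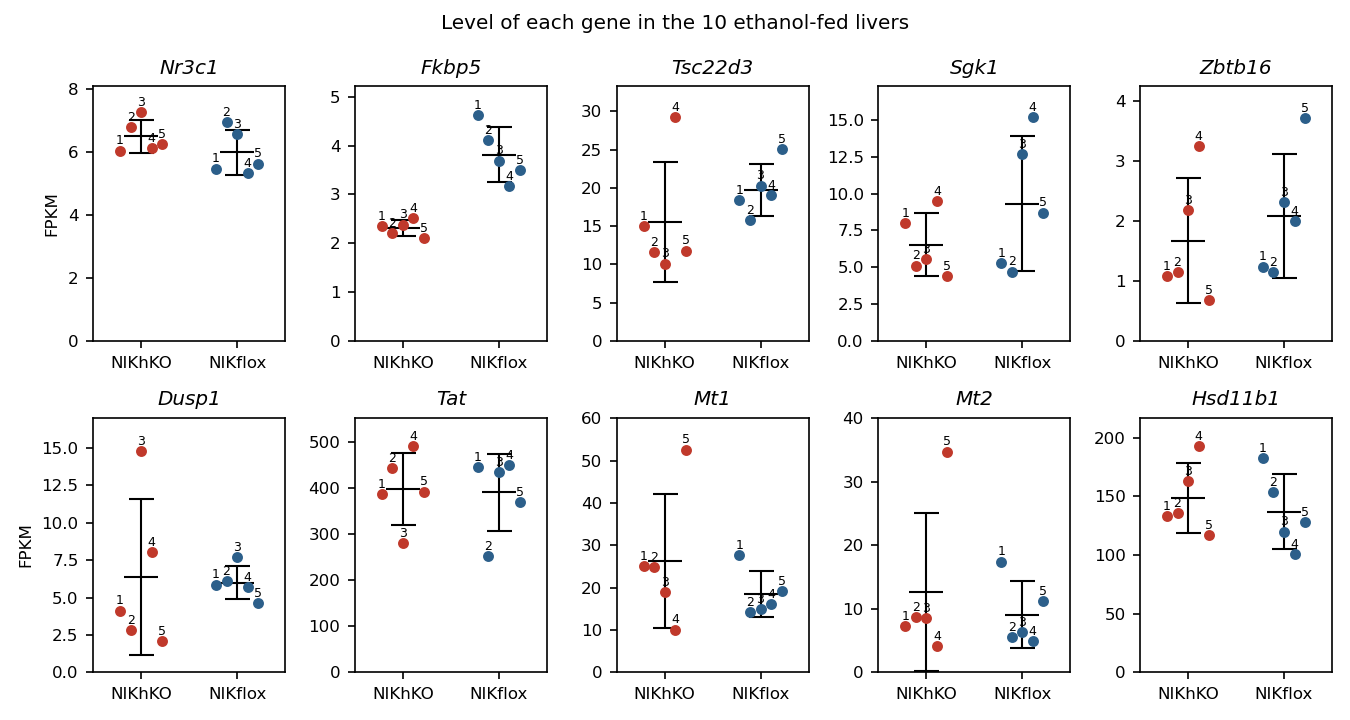
FPKM of each of the 10 genes (vertical axis, from 0, its own scale in each panel) in NIKhKO livers (red, left) and NIKflox livers (blue, right). Numbers are the library numbers and black bars the mean ± SD of 5 livers; in the Fkbp5 panel the NIKhKO livers lie at 2.11 to 2.51 FPKM and the NIKflox livers at 3.17 to 4.62 FPKM, and in every other panel the genotypes overlap.

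The receptor's own transcript differed little between livers. Nr3c1 read 6.04, 6.79, 7.26, 6.13 and 6.25 FPKM in NIKhKO 1 to 5, against 5.47, 6.95, 6.57, 5.32 and 5.63 FPKM in NIKflox 1 to 5. The ranges overlapped. Nr3c1 averaged 6.50 ± 0.516 FPKM in NIKhKO livers and 5.99 ± 0.727 FPKM in NIKflox livers (SD, n = 5 each). Its log2 fold change was 0.18 (SE 0.11, 95% interval −0.06 to 0.42, edgeR adjusted p = 0.64). Within a genotype its SD on the log2 CPM scale (CPM, counts scaled to library size) was 0.166, larger than that of 21.1% of the genes tested, so it was one of the steadier members. In whole liver, fewer cells of a type and less RNA per cell cannot be told apart, for Nr3c1 or any gene below.

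Fkbp5 was the member whose genotypes stood apart. It encodes an Hsp90 co-chaperone that lowers the receptor's affinity for hormone and is itself induced by glucocorticoids. It read 2.35, 2.20, 2.38, 2.51 and 2.11 FPKM in NIKhKO 1 to 5, against 4.62, 4.11, 3.69, 3.17 and 3.49 FPKM in NIKflox 1 to 5. Every NIKhKO liver lay below every NIKflox liver, and the NIKhKO livers lay close together, with a highest value 1.19 times the lowest, against 1.46 times in NIKflox livers. The NIKhKO mean of 2.31 ± 0.156 FPKM was 60.6% of the NIKflox mean of 3.82 ± 0.563 FPKM (SD, n = 5 each), and the log2 fold change was −0.67 (SE 0.13). Ranges that did not overlap were found for 1 of the 10 members and for 2.2% of all genes tested (1.59% lower and 0.605% higher in NIKhKO livers), and this Fkbp5 difference is what the group was chosen on. Without any 1 library the log2 fold change stayed between −0.73 and −0.57, and without NIKflox 2 and NIKflox 4 it was −0.72. Fkbp5 counts were 1364 to 2574 per library.

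The Fkbp5 gene (ENSMUSG00000024222, chromosome 17, 28399094 to 28517527, minus strand, GRCm38) overlaps 4 other annotated genes. The one with the highest level, the antisense gene Gm22146, read 1.26 ± 0.5 FPKM in NIKhKO livers and 2.14 ± 0.924 FPKM in NIKflox livers (SD, n = 5 each). The sources used here do not say whether the counting used strand, so reads of the antisense partner and of Fkbp5 may not be fully separated. Fkbp5 and its closest relative Fkbp4 share no stretch of 25 bases in their annotated transcripts.

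**Figure D2:**
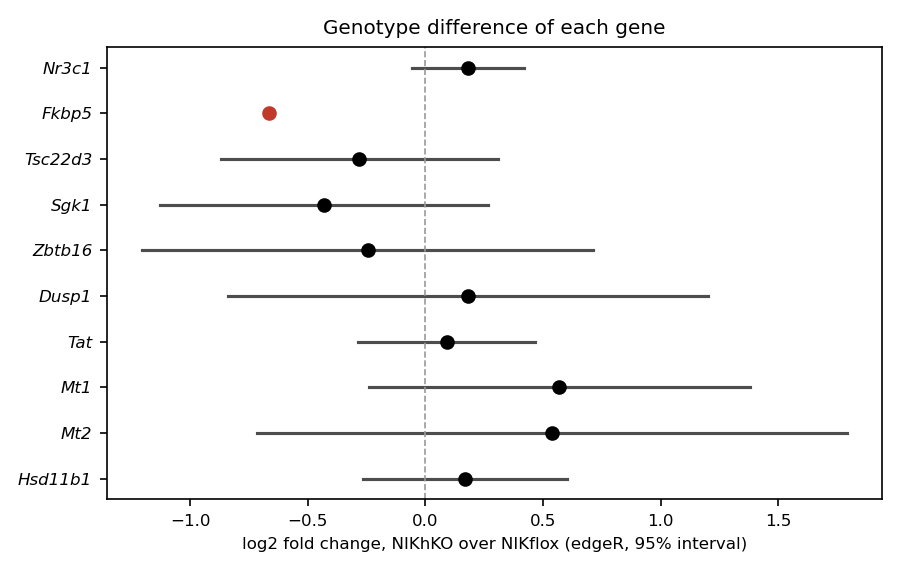
Log2 fold change of each gene, NIKhKO over NIKflox (horizontal axis), from edgeR, with lines for the 95% interval. Fkbp5 (red) is drawn without an interval because its difference chose the group; the intervals of the other 9 genes all include 0 and run widest for Mt2, from −0.72 to 1.79.

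Whether the other direct targets followed Fkbp5 could not be settled, because their spread was wide. The edgeR intervals drawn above ran from −0.87 to 0.31 for Tsc22d3 and from −1.128 to 0.265 for Sgk1. They ran from −1.204 to 0.713 for Zbtb16 and from −0.84 to 1.203 for Dusp1. Each interval includes the Fkbp5 log2 fold change of −0.665 as well as no difference. Tsc22d3 encodes the leucine zipper protein GILZ, an anti-inflammatory mediator of glucocorticoids. It read 15, 11.6, 10.1, 29.2 and 11.8 FPKM in NIKhKO 1 to 5, against 18.4, 15.8, 20.3, 19.0 and 25.1 FPKM in NIKflox 1 to 5. In 4 of the NIKhKO livers it lay below all NIKflox livers, while NIKhKO 4 lay above them all. Its log2 fold change was −0.28 (SE 0.27, edgeR adjusted p = 0.80), and −0.65 without NIKhKO 4 (adjusted p = 0.16).

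Sgk1, a kinase that regulates ion transport and is a classical corticosteroid target, read 8.01, 5.12, 5.57, 9.50 and 4.42 FPKM in NIKhKO 1 to 5, against 5.29, 4.70, 12.7, 15.2 and 8.72 FPKM in NIKflox 1 to 5. NIKflox 3 and NIKflox 4 were highest, and the other 3 NIKflox livers lay within the NIKhKO range. The log2 fold change was −0.43 (SE 0.32, 95% interval −1.13 to 0.27, edgeR adjusted p = 0.72). Without NIKflox 4 it was −0.21, and without NIKhKO 4 it was −0.61.

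Zbtb16 encodes the zinc finger repressor PLZF, which glucocorticoids induce and which natural killer T cells also express. It was the lowest member, at 1.08, 1.15, 2.18, 3.25 and 0.685 FPKM in NIKhKO 1 to 5, against 1.24, 1.15, 2.32, 2 and 3.71 FPKM in NIKflox 1 to 5. The ranges overlapped almost fully, with a log2 fold change of −0.25 (SE 0.44, edgeR adjusted p = 0.91) that turned to 0.08 without NIKflox 5. T and natural killer T cell markers summed to 2.83 to 3.98 FPKM over 12 genes in NIKhKO livers and 2.92 to 4.29 FPKM in NIKflox livers. Their part in the Zbtb16 level was not tested.

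Dusp1, the MAP kinase phosphatase through which glucocorticoids dampen inflammatory signalling, also responds within minutes to stress and handling. It read 4.12, 2.85, 14.8, 8.05 and 2.10 FPKM in NIKhKO 1 to 5, against 5.87, 6.10, 7.68, 5.69 and 4.64 FPKM in NIKflox 1 to 5. The NIKhKO livers spanned 7.07-fold and lay on both sides of the narrow NIKflox range. The direction of its difference was not settled: it was 0.18 on the log2 scale in edgeR (SE 0.47, adjusted p = 0.94), and −0.44 without NIKhKO 3. Of 12 tested immediate early genes, 0 were called by edgeR or DESeq2 and 3 had an unadjusted edgeR p below 0.05, with 2 positive and 10 negative log2 fold changes and a median of −0.23. They included Gadd45b (2.19 ± 0.680 FPKM in NIKhKO livers and 3.76 ± 0.610 FPKM in NIKflox livers), Fos (0.306 ± 0.196 and 0.828 ± 0.488 FPKM) and Ier2 (9.09 ± 1.39 and 13.9 ± 5.20 FPKM), NIKhKO before NIKflox (SD, n = 5 each). Without NIKflox 2 and NIKflox 4, 3 of the 12 immediate early genes were positive and 9 negative, with a median of −0.20. Dusp1 overlaps Ergic1 on the other strand, which read 8.28 ± 0.927 FPKM in NIKhKO livers and 8.57 ± 0.440 FPKM in NIKflox livers.

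Tat, tyrosine aminotransferase, the first enzyme of tyrosine breakdown and a textbook glucocorticoid target of hepatocytes, was the most abundant member. It read 387, 444, 281, 492 and 393 FPKM in NIKhKO 1 to 5, against 447, 253, 436, 450 and 371 FPKM in NIKflox 1 to 5. The lowest liver of each genotype, NIKhKO 3 and NIKflox 2, stood well below the rest. The log2 fold change was 0.09 (SE 0.17, 95% interval −0.29 to 0.47, edgeR adjusted p = 0.91), and it was −0.02 without NIKflox 2 and NIKflox 4. The 5 enzymes around Tat, of phenylalanine and tyrosine breakdown, were all above 0 on the log2 fold change scale (median 0.28), while 51.8% of all genes tested were below 0. None was called by edgeR, 4 had an unadjusted p below 0.05, and DESeq2 called 3. Fah, which cleaves fumarylacetoacetate, read 275 ± 16.3 FPKM in NIKhKO livers and 226 ± 15.1 FPKM in NIKflox livers, a log2 fold change of 0.34 (SE 0.09, edgeR adjusted p = 0.26). Hpd, the dioxygenase just after Tat, read 1240 ± 226 FPKM and 925 ± 104 FPKM, and Gstz1, the maleylacetoacetate isomerase, 50.3 ± 2.98 FPKM and 43.2 ± 2.31 FPKM, in NIKhKO and NIKflox livers (SD, n = 5 each). Without NIKflox 2 and NIKflox 4, 4 of the 5 were positive, with a median of 0.23.

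Mt1 and Mt2 encode metallothioneins, small cysteine-rich zinc-binding proteins that zinc, glucocorticoids and inflammatory cytokines induce in liver. Mt1 read 25.1, 24.9, 19.0, 10.1 and 52.6 FPKM in NIKhKO 1 to 5, against 27.7, 14.3, 15, 16.2 and 19.2 FPKM in NIKflox 1 to 5. Mt2 read 7.23, 8.71, 8.53, 4.18 and 34.7 FPKM in NIKhKO 1 to 5, against 17.4, 5.52, 6.33, 4.94 and 11.2 FPKM in NIKflox 1 to 5. For both genes NIKhKO 5 was the highest of the 10 livers and NIKhKO 4 the lowest, so the extremes fell in 1 genotype.

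The metallothionein log2 fold changes were 0.57 for Mt1 (SE 0.37, edgeR adjusted p = 0.67) and 0.54 for Mt2 (SE 0.57, adjusted p = 0.82). Without NIKhKO 5 they were 0.14 and −0.30. Mt2 varied more within a genotype than 95.5% of the genes tested, and Mt1 more than 89.0%. Annotated Mt1 and Mt2 transcripts share no stretch of 25 bases, so reads of that length or more can be told apart. Of 6 tested genes of zinc transport and metal sensing, 0 were called by edgeR or DESeq2, and 1, the metal exporter Slc30a10, had an unadjusted edgeR p below 0.05, at 5.09 ± 1.44 FPKM in NIKhKO livers and 7.85 ± 1.68 FPKM in NIKflox livers. The metal importers Slc39a5 and Slc39a14 followed at log2 fold changes of −0.77 and 0.14 (edgeR adjusted p = 0.51 and 0.64).

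Hsd11b1 encodes the reductase that regenerates active corticosterone from its inactive keto form inside hepatocytes. It read 133, 136, 163, 193 and 117 FPKM in NIKhKO 1 to 5, against 183, 154, 120, 101 and 128 FPKM in NIKflox 1 to 5. The genotypes covered nearly the same range. The log2 fold change was 0.17 (SE 0.20, 95% interval −0.27 to 0.60, edgeR adjusted p = 0.84). Reads from Lamb3, a gene on the other strand that spans the Hsd11b1 locus, were few, at 0.895 ± 0.251 FPKM in NIKhKO livers and 0.606 ± 0.144 FPKM in NIKflox livers (SD, n = 5 each).

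By level, Tat and Hsd11b1 stood above the rest in all 10 libraries, with means over all livers of 395 and 143 FPKM. Mt1 (22.4 FPKM) and Tsc22d3 (17.6 FPKM) followed and were not separated, each being higher in 5 of 10 libraries. Mt2, Sgk1, Nr3c1 and Dusp1 lay between 6.19 and 10.9 FPKM, and neighbours in that order overlapped. Fkbp5 (3.06 FPKM) and Zbtb16 (1.88 FPKM) were lowest, with Fkbp5 higher in 8 of 10 libraries.

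Whether members vary together was asked after each genotype was centred on its own mean, which takes out the difference that chose the group. Of 45 pairs over 10 libraries, 2 passed a permutation test of Pearson's r after Benjamini-Hochberg adjustment over the 45. Fkbp5 and Hsd11b1 were correlated at r = 0.91 (permutation p = 0.00059, adjusted p = 0.027) and Spearman's rho = 0.83 (permutation p = 0.015, adjusted p = 0.35). Within each genotype the liver with most Fkbp5, NIKhKO 4 and NIKflox 1, also had most Hsd11b1, and the liver with least, NIKhKO 5 and NIKflox 4, had least. Mt1 and Mt2 were correlated at r = 0.92 (permutation p = 0.0018, adjusted p = 0.041) and rho = 0.76 (permutation p = 0.022, adjusted p = 0.35).

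Without the 2 libraries farthest from the median of the first gene, r was 0.84 for both pairs. Leaving out any 1 library kept r between 0.87 and 0.94 for Fkbp5 with Hsd11b1 and between 0.83 and 0.95 for Mt1 with Mt2. With 9 libraries the adjusted p rose above 0.05 for Fkbp5 with Hsd11b1 without NIKhKO 2, 4 or 5 or NIKflox 1, 3, 4 or 5 (0.054 to 0.16), and for Mt1 with Mt2 without any library other than NIKhKO 3 (0.054 to 0.21). All genes of a library share its depth and RNA quality, whose part in these correlations was not tested. No pair of Fkbp5 with another direct target passed: r was 0.08 with Tsc22d3, −0.51 with Sgk1, −0.15 with Zbtb16 and 0.33 with Dusp1. In the same order Spearman's rho was −0.14, −0.49, −0.15 and 0.59, the last with a permutation p of 0.031 (adjusted p = 0.35). Without the 2 libraries farthest from the Fkbp5 median, r was 0.204, 0.024, 0.099 and 0.595. A pair that did not pass may still vary together.

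**Figure D3:**
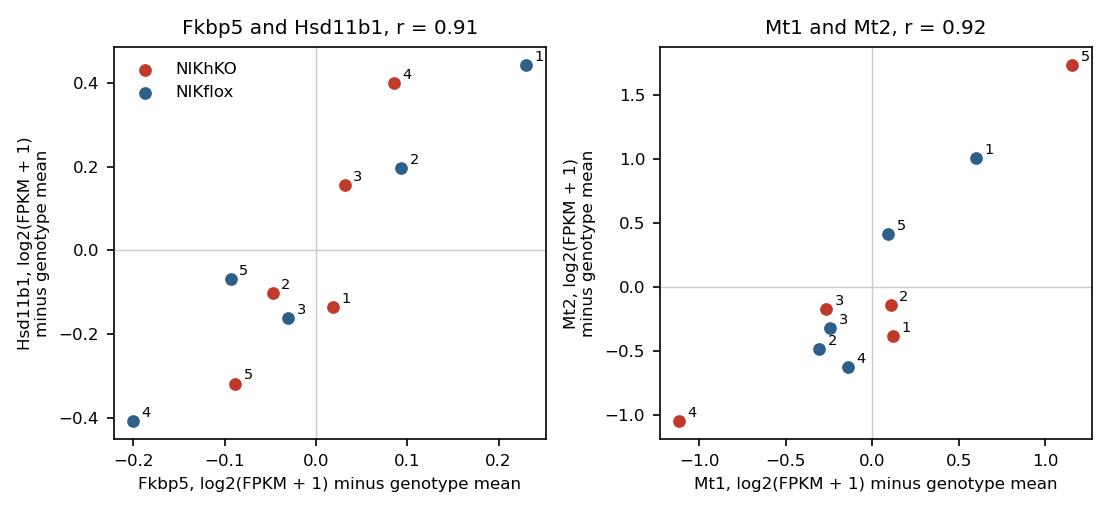
Fkbp5 against Hsd11b1 (left) and Mt1 against Mt2 (right), each as log2(FPKM + 1) minus the mean of its genotype, with NIKhKO livers in red, NIKflox livers in blue and library numbers beside the points. In both panels the points of both genotypes run from lower left to upper right, with Pearson's r of 0.91 and 0.92 over 10 livers.

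Among 9329 other genes with a mean of at least 1 FPKM, the 8 most like Fkbp5 within genotypes, by Pearson's r of log2(FPKM + 1) over the 10 centred libraries, were Serpina1d (0.95), Serpina1b (0.94), Apcs (0.94), Loxl4 (0.94), Hsd3b3 (0.94), Ifitm1 (0.91), Sult3a1 (0.91) and Atp5l2-ps (0.89). They are given as a description with no test, being the highest of many. Genes with a Gm number, a Rik clone name or an accession-like symbol were left out of the 9329. Serpina1d and Serpina1b belong to a family of near-identical copies, and their levels are uncertain. The genotype differences of these 8 went both ways. Serpina1d, a protease inhibitor secreted by hepatocytes, averaged 2140 ± 170 FPKM in NIKhKO livers and 1540 ± 516 FPKM in NIKflox livers. Sult3a1, a sulfotransferase, averaged 0.582 ± 0.731 FPKM in NIKhKO livers and 4.19 ± 3.18 FPKM in NIKflox livers (SD, n = 5 each). Hsd11b1, with r = 0.91, stood above 99.9% of these genes.

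The enzymes and carriers that set how much corticosteroid reaches the receptor were split in sign, with 5 positive and 4 negative log2 fold changes and a median of 0.14. Of these 9 tested, 0 were called by edgeR, 5 had an unadjusted p below 0.05, and DESeq2 called 2, Akr1d1 and Serpina6. Akr1d1, the reductase that inactivates steroids such as corticosterone in liver and also serves bile acid synthesis, read 89.7, 88.2, 112, 93.5 and 94.1 FPKM in NIKhKO 1 to 5, against 72.2, 52.1, 76.3, 63.7 and 71.0 FPKM in NIKflox 1 to 5. All NIKhKO livers lay above all NIKflox livers, a separation found in that direction for 0.605% of all genes tested, with a log2 fold change of 0.58 (SE 0.13, edgeR adjusted p = 0.23).

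Serpina6 encodes the corticosteroid-binding globulin, which hepatocytes secrete and which carries corticosterone in blood. It read 457, 597, 456, 285 and 621 FPKM in NIKhKO 1 to 5, against 197, 202, 328, 325 and 321 FPKM in NIKflox 1 to 5. In 4 of 5 NIKhKO livers it lay above all NIKflox livers, and NIKhKO 4 lay among them. The log2 fold change was 0.88 (SE 0.21, edgeR adjusted p = 0.23). Srd5a1, another steroid reductase, went the other way, at 8.55 ± 1.3 FPKM in NIKhKO livers and 12.3 ± 1.74 FPKM in NIKflox livers (SD, n = 5 each), again without overlap, as for 1.59% of all genes tested in that direction (log2 fold change −0.46, SE 0.12, edgeR adjusted p = 0.26). Without NIKflox 2 and NIKflox 4 the log2 fold changes were 0.44 for Akr1d1, 0.83 for Serpina6 and −0.39 for Srd5a1.

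The chaperones that hold the receptor ready for hormone mostly had negative log2 fold changes, fewer so without 2 libraries. Of 16 tested, 1 had a positive and 15 a negative log2 fold change, with a median of −0.16, while 51.8% of all genes tested were negative. None was called by edgeR, 4 had an unadjusted p below 0.05, and DESeq2 called 1, Dnajb1. Dnajb1, an Hsp40 co-chaperone, read 6.13, 10.4, 9.31, 10 and 9.87 FPKM in NIKhKO 1 to 5, against 13.9, 19.9, 11.7, 17.6 and 13.0 FPKM in NIKflox 1 to 5. Its ranges did not overlap, as for 1.59% of all genes tested in that direction (log2 fold change −0.67, SE 0.18, edgeR adjusted p = 0.26). Stip1, which joins Hsp70 to Hsp90, read 39.0 ± 2.42 FPKM in NIKhKO livers and 53.8 ± 13.1 FPKM in NIKflox livers, and Ahsa1, an activator of Hsp90, 15 ± 0.629 FPKM and 19.8 ± 4.76 FPKM (SD, n = 5 each). The summed chaperone level was 714 to 838 FPKM in NIKhKO livers, against 1070, 1070, 768, 1350 and 845 FPKM in NIKflox 1 to 5. Without NIKflox 2 and NIKflox 4, the libraries with heart muscle transcripts, 6 of 16 were positive and the median was −0.04. The log2 fold changes were then −0.44 for Dnajb1 (edgeR adjusted p = 0.56), −0.21 for Stip1 and −0.17 for Ahsa1.

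Coregulators of the receptor were evenly split in sign, though not without NIKflox 2 and NIKflox 4, when 9 of 12 were positive. Of 12 tested, 6 were positive and 6 negative, with a median of 0.05, and edgeR and DESeq2 called 0, with 0 at an unadjusted edgeR p below 0.05. Hdac3, the deacetylase of the corepressor complex, read 8.67 ± 0.538 FPKM in NIKhKO livers and 7.92 ± 1.25 FPKM in NIKflox livers. Crebbp, an acetyltransferase, read 1.45 ± 0.215 and 1.3 ± 0.19 FPKM, and Ncoa2, a coactivator, 1.55 ± 0.199 and 1.17 ± 0.563 FPKM, NIKhKO before NIKflox (SD, n = 5 each). The NIKflox mean of Ncoa2 was pulled down by NIKflox 2, at 0.208 FPKM, against 1.63, 1.51, 1.2 and 1.27 FPKM in NIKflox 1, 3, 4 and 5.

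A wider list of 28 tested receptor targets in liver, among them genes of glucose production and the cell cycle, had 10 positive and 18 negative log2 fold changes and a median of −0.25. None was called by edgeR, 4 had an unadjusted p below 0.05, and DESeq2 called 2, Gadd45g and Cdkn1a. Gadd45g, a stress-inducible growth arrest gene, read 2.97, 1.60, 3.48, 2.92 and 0.863 FPKM in NIKhKO 1 to 5, against 3.81, 4.06, 9.10, 27.9 and 10.4 FPKM in NIKflox 1 to 5. Its ranges did not overlap, as for 1.59% of all genes tested in that direction, and NIKflox 4 was highest. The Gadd45g log2 fold change was −2.11 (SE 0.55, edgeR adjusted p = 0.26), and −1.64 without NIKflox 2 and NIKflox 4. Cdkn1a, the cyclin-dependent kinase inhibitor p21, read 1.45 ± 0.456 FPKM in NIKhKO livers and 3.74 ± 1.67 FPKM in NIKflox livers, and Glul, the glutamine synthetase of pericentral hepatocytes, 212 ± 27.1 FPKM and 292 ± 48.4 FPKM (SD, n = 5 each). Without NIKflox 2 and NIKflox 4 the list had 12 positive and 16 negative members and a median of −0.07. The log2 fold change went from −1.31 to −1.04 for Cdkn1a and from −0.40 to −0.45 for Glul. Singled out after their values were seen, Igfbp1 and G6pc moved most on leaving these libraries out. Igfbp1, a fasting-induced binding protein of insulin-like growth factors, read 32.2, 41.3, 58.5, 29.7 and 39.8 FPKM in NIKhKO 1 to 5, against 12.1, 214, 2.58, 22.1 and 3.7 FPKM in NIKflox 1 to 5. Its log2 fold change was −0.29 with all libraries (edgeR adjusted p = 0.96) and 2.76 without the 2 (edgeR adjusted p = 0.26). For G6pc, the last enzyme of glucose release, these values were 0.43 and 1.55 (edgeR adjusted p = 0.88 and 0.57). Of 95 tested genes that the table ties to a GO term naming glucocorticoids, 5 of them members, 55 were positive and 40 negative, with a median of 0.04; edgeR called 0, 15 had an unadjusted p below 0.05, and DESeq2 called 4.

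**Figure D4:**
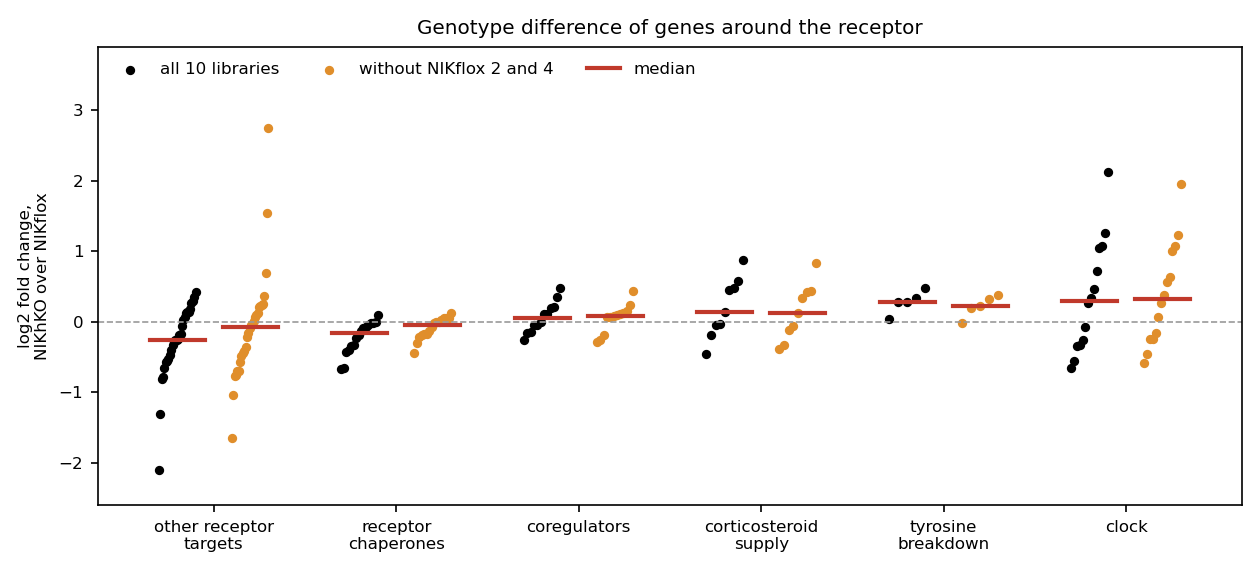
Log2 fold changes, NIKhKO over NIKflox (vertical axis), of the tested genes of 6 lists around the receptor, with all 10 libraries (black) and without NIKflox 2 and NIKflox 4 (orange), and red lines for medians. The chaperone median is −0.16 with all libraries and −0.04 without the 2, and the tyrosine breakdown median is 0.28 with all and 0.23 without them.

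Relatives of the members in their own families were split. Of 18 tested, 7 were positive and 11 negative, with a median of −0.09; edgeR called 0, 5 had an unadjusted p below 0.05, and DESeq2 called 2. Fkbp11, a prolyl isomerase of the secretory pathway, read 1.84 ± 0.144 FPKM in NIKhKO livers and 2.76 ± 0.418 FPKM in NIKflox livers, without overlap, as for 1.59% of all genes tested in that direction. Tsc22d1, a relative of Tsc22d3, read 4.58, 5.35, 3.73, 6.41 and 4.66 FPKM in NIKhKO 1 to 5, against 13.6, 14.5, 7.30, 6.51 and 7.49 FPKM in NIKflox 1 to 5, also without overlap (log2 fold change −0.95, SE 0.26, edgeR adjusted p = 0.26). Without NIKflox 2 and NIKflox 4 the family had 11 positive and 7 negative members and a median of 0.02. Fkbp14, an isomerase of the endoplasmic reticulum, had a log2 fold change of −0.45 (edgeR adjusted p = 0.33).

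Clock and acute phase genes were also read beside Fkbp5, and their part in its difference was not tested. Glucocorticoid targets follow the time of day, and the sources used here do not give the hour of collection. Of 14 tested clock genes, 8 were positive and 6 negative, with a median of 0.30; edgeR called 0, 6 had an unadjusted p below 0.05, and DESeq2 called 1. Nr1d1, a clock repressor, read 21.1, 21, 26.5, 17.3 and 15.5 FPKM in NIKhKO 1 to 5, against 7.45, 13.0, 15.2, 6.72 and 9.14 FPKM in NIKflox 1 to 5. Its ranges did not overlap, as for 0.605% of all genes tested in that direction. Dbp, a clock output factor, averaged 5.81 ± 3.72 FPKM in NIKhKO livers and 1.38 ± 1.33 FPKM in NIKflox livers, and Nr1d2 5.69 ± 0.919 and 3.64 ± 1.66 FPKM (SD, n = 5 each). Of 15 tested acute phase genes, which cytokines and glucocorticoids induce together, 5 were positive and 10 negative, with a median of −0.04; edgeR called 0, 5 had an unadjusted p below 0.05, and DESeq2 called 3, Orm3, Saa2 and Saa1. These 3, named for the smallest p, were higher in NIKhKO livers on average, unlike most of the list. Orm3 averaged 11.9 ± 3.58 FPKM in NIKhKO livers and 3.4 ± 2.06 FPKM in NIKflox livers, Saa2 7.96 ± 3.88 and 1.75 ± 0.777 FPKM, and Saa1 13.7 ± 6.86 and 3.49 ± 1.24 FPKM (SD, n = 5 each). Without NIKflox 2 and NIKflox 4, 9 clock genes were positive and 5 negative, with a median of 0.32. The acute phase genes then had 6 positive and 9 negative log2 fold changes and a median of −0.04.

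Marker genes of other cell types were summed per library, and their part in the results above was not tested. B cell markers summed to 6.65 to 16.1 FPKM in NIKhKO livers and 3.89 to 7.09 FPKM in NIKflox livers over 7 genes. All 6 tested had positive log2 fold changes (median 1.18) and an unadjusted edgeR p below 0.05, edgeR called 0, and DESeq2 called 2. Cholangiocyte markers summed to 16.1 to 27.6 FPKM in NIKhKO livers and 26.4 to 46.8 FPKM in NIKflox livers over 6 genes. Most of it was Spp1, at 19.2 ± 3.36 FPKM in NIKhKO livers and 31.6 ± 9.24 FPKM in NIKflox livers (SD, n = 5 each). All 4 cholangiocyte markers tested were negative (median −0.59, also without NIKflox 2 and NIKflox 4), with 0 called by edgeR, 2 at an unadjusted p below 0.05 and 1 called by DESeq2. Stellate cell markers summed to 34.7 to 51.1 FPKM in NIKhKO livers and 42.5 to 83.6 FPKM in NIKflox livers, and all 8 tested were negative (median −0.34), with 0 called by edgeR or DESeq2 and 1 at an unadjusted edgeR p below 0.05. Without NIKflox 2 and NIKflox 4, 7 of the 8 stellate markers were negative, with a median of −0.26. Adipose markers summed to 637 to 1570 FPKM in NIKhKO livers and 426 to 666 FPKM in NIKflox livers, most of it Car3, which hepatocytes also express. Of 3 tested, Car3 was positive (log2 fold change 1.09), while Cfd (−4.17) and Fabp4 (−0.31) were negative. EdgeR called 0, 1 had an unadjusted p below 0.05, and DESeq2 called 1. Cfd and Fabp4 were highest in NIKflox 2, at 14.4 and 6.96 FPKM. Without NIKflox 2 and NIKflox 4, all 3 were positive. Ranges of macrophage (115 to 183 in NIKhKO, 106 to 183 in NIKflox), endothelial (27.6 to 45.3 in NIKhKO, 38.4 to 49.7 in NIKflox) and neutrophil markers (1.9 to 5.02 in NIKhKO, 2.65 to 8.56 FPKM in NIKflox) overlapped. Kidney and adrenal markers summed to at most 0.474 FPKM in NIKhKO livers and 0.495 FPKM in NIKflox livers, with 5 of 6 at a count of 0 in all libraries.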

How the data were processed

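The authors deposited 1 table that gives, for every gene and library, the FPKM and an estimated count in whole numbers. Read trimming, alignment and assembly tools are listed without roles in the submitters' processing notes, as StringTie 1.3.4d, HISAT2 2.0.4, cutadapt 1.9 and edgeR, beside the human build hg38. The gene identifiers are those of mouse, and 8 of the 10 members have the same start and end in GENCODE M21 (GRCm38), so coordinates are read as GRCm38. The deposited FPKM values list a gene with a count of 0 at 1e-04. In the deposited estimated counts, an average of 907 genes per library stood at 4, against 330.5 at 3 and 175.8 at 5. Other multiples of 4 were not examined, so whether totals overstate the number of fragments is not known.

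Genes averaging 0.5 FPKM or more, and Map3k14, were tested on the estimated counts, which are whole numbers already, with edgeR 4.0.16 (R 4.3.3; quasi-likelihood, TMM, two-sided, Benjamini-Hochberg over 12731 genes). All 10 members passed this filter. Each standard error was taken as the fold change on the log2 scale over the root of its F value. DESeq2 1.42.0, limma 3.58.1 on log2(FPKM + 1), other scalings and filters, and leaving out libraries were alternatives. The edgeR fit was first tested on simulated data, with 50 changed genes per fold. It recovered 22% of 1.5-fold, 70% of 2-fold and 98% of 4-fold changes, with 7 false calls. The changed genes were drawn, in a single simulated set, only from genes above a floor in mean count. Recovery of genes with fewer counts was not measured. A gene that was not called may therefore still differ. Pairs of members were tested with 100000 permutations within genotype of log2(FPKM + 1).

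The members and lists were chosen with earlier results of these data known. The named genes are the members, Map3k14, the 3 genes with the smallest p in each list described (marker lists are given mainly by sums and counts), and the 8 genes most like Fkbp5.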

Additional observations from a re-analysis of the deposited data

Results flagged for a closer look

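Of 22 groups of 5 values examined (10 members and Map3k14 in each genotype), 3 had 1 library far from the other 4, by a gap above 0.71 of the group's range. Chance alone marks about 1 in 20 groups. Tsc22d3 in NIKhKO 4 stood at 29.2 FPKM, while the other NIKhKO livers lay between 10.1 and 15 FPKM. Mt2 in NIKhKO 5 stood at 34.7 FPKM, with the next NIKhKO liver at 8.71 FPKM. Map3k14 in NIKflox 4 stood at 0.899 FPKM, with the next NIKflox liver at 0.585 FPKM.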

How the results depend on the processing

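The count of genes called, 3 in edgeR, was 207 with DESeq2 (1.66% of 12456), 0 with limma on log2(FPKM + 1) (pseudocount 1) and 0 with a pseudocount of 0.1, 6 with robust shrinkage and 1 without NIKflox 2 and 4; leaving out 1 library gave 0 to 24. With the replicate number as a block 2 genes were called; same-numbered libraries did not deviate together (r −0.25 to 0.05), and 0 of the 5 NIKhKO libraries correlated best with its own number. The count of members called was 0 in each alternative except DESeq2, where it was 1; that 1 is Fkbp5, whose difference chose the group, so it is no test of that difference. The count of correlated pairs, 2, was 1 on log2 CPM, and leaving out 1 library gave 0 to 3. The edgeR log2 fold change of Dusp1, 0.18, was −0.17 and −0.25 with limma at pseudocounts of 1 and 0.1 and −0.20 with the replicate block. That of Tat, 0.09, was −0.022 without NIKflox 2 and 4. Leaving out 1 library gave −0.435 to 0.406 for Dusp1, −0.027 to 0.181 for Tat, −0.303 to 0.94 for Mt2 and −0.635 to 0.083 for Zbtb16. The cause of these reversals was not tested. Fkbp5, Tsc22d3, Sgk1, Nr3c1, Mt1, Hsd11b1 and Map3k14 kept their direction in all 20 alternatives. Counting error matters more for Mt2, with as few as 143 counts in a library, than for Tat, with at least 40239.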
